A study of Mus musculus with 10 samples.

Results

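Interferon response genes were read in mammary epithelial cells sorted from Bptf wild-type and Bptf knockout mice. Bptf is a subunit of a chromatin remodelling complex. The genes were a list of 39 symbols of sensors, transcription factors and effectors known to be induced by interferon, and all 39 were found among the 23973 genes with a usable symbol. The rule for the list uses names and no measured value, but the genes were chosen with earlier results of these data known. By role they comprised 4 transcription factors, 6 sensors of RNA or DNA, 5 members of the OAS family, 5 IFIT and other inducible proteins, 7 dynamin-like and interferon GTPases, 6 genes of the ISG15 system and other signalling modifiers, and 6 virus restriction factors.

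All mice were female, and tamoxifen (15 mg per kg body weight, summed) had been given to each before flow sorting. By title the groups, of 2 libraries each, were Bptf wild-type (WT) luminal cells, Bptf WT myoepithelial (basal) cells, Bptf knockout (KO) luminal cells, Bptf KO myoepithelial cells and KO cells labelled Bsecs, a name the labels leave unexplained. The sources used here do not give the Cre driver, the mice behind each library or their ages. The deposited tables gave 1 value per gene and group, so no value below has a replicate error, and each test compares single columns and not conditions. A column's summed counts ranged from 2036681 to 3840462, and the ribosomal precursor Rn45s took 9.76% to 32.2% of them.

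Labels and headers disagreed for 3 of the 5 columns. The basal column with 2036681 counts was headed KO in one table and WT in another, and the one with 2359861 counts had the opposite headings. Here they go by their size, smaller and larger basal column, and differences between them are not read as effects of Bptf. The KO luminal libraries are KO by title, while their source label names BptfWT mice. Summed marker levels separated the luminal from the basal columns. The 14 luminal markers summed to 61720 and 58060 normalised counts in the WT and KO luminal columns and to 4204 and 5904 in the basal columns, larger first, and 12 basal markers to 562, 1492, 26530 and 49090 in the same order. Single markers departed from this, since the luminal markers Esr1 and Gata3 were at 947 and 529.7 in the smaller basal column, beside 319.7 and 272 in WT luminal cells, and Esr1 passed the adjusted test between the basal columns. Bsecs held both kinds, at 21240 and 19570.

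Type I and type III interferons are secreted when a cell senses foreign nucleic acid. They signal through receptor-bound kinases to a complex that holds Stat2 and Irf9 and binds interferon-stimulated response elements (ISRE). Type II interferon acts on gamma-activated sites (GAS). The products of the induced genes detect viral RNA and DNA, block translation and virus assembly, or attack the membrane around intracellular pathogens, and many of them are also made at a low level by epithelial cells without infection.

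Promoter windows were searched for simple forms of these elements. RefSeq windows of 300 bases, from 250 before to 50 after the start in build GRCm38.p6, were matched by symbol for 29 of the 39 genes. The ISRE pattern searched was GAAA, any 2 bases, GAAA on both strands, and it was in the windows of 16 of 29 genes (55.2%), against 3.99% of 27025 genes and 3.44% of 32851 windows. The GAS pattern TTCNNNGAA, which reads the same on both strands and can share bases with the ISRE pattern, was in 9 of 29 (31%), against 9.55% of genes and 8.3% of windows. Both were found for 4 genes and neither for 8. A match is a description of the letters and shows no binding. These 9 stretches before the start carry the ISRE pattern, in capitals, in genes whose levels are described below, and are printed 5′ to 3′ along the gene:
Isg15 (chr4:156200840-156200931, minus strand): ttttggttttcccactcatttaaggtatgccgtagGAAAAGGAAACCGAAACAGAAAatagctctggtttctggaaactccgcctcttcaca
Ifit1 (chr19:34640750-34640848, plus strand): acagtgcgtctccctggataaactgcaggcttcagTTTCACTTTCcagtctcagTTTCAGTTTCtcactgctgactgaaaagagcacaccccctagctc
Ifit3 (chr19:34583338-34583451, plus strand): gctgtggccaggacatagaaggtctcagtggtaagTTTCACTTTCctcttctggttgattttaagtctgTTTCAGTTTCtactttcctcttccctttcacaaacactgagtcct
Rsad2 (chr12:26456528-26456607, minus strand): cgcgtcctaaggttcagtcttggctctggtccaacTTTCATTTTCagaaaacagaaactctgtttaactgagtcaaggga
Bst2 (chr8:71537552-71537637, minus strand): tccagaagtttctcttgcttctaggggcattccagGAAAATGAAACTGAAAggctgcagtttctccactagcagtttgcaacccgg
Gbp2 (chr3:142620569-142620648, plus strand): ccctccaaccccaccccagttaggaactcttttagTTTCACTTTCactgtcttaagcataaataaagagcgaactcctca
Irgm1 (chr11:48871421-48871485, minus strand): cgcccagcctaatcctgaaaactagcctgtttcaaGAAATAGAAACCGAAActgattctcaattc
Igtp (chr11:58199487-58199555, plus strand): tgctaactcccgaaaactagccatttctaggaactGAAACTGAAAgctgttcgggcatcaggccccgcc
Apobec3 (chr15:79892233-79892312, plus strand): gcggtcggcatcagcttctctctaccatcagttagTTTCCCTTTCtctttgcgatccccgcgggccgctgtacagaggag

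The matches began 78 bases before the start of Isg15 and 104 before that of Ifit1. The farthest of the 9 from the start was that of Ifit3, at 156 bases, and the nearest that of Irgm1, at 30. The next stretches carry the GAS pattern in capitals, and belong to 2 of the 9 genes with that pattern, picked with their values known. Irf1 was the only listed gene at least 2-fold higher in the smaller than in the larger basal column, and Ifi202b was highest in Bsecs:
Irf1 (chr11:53769889-53769967, plus strand): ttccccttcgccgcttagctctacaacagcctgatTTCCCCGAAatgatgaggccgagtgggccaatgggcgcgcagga
Ifi202b (chr1:173982949-173983027, minus strand): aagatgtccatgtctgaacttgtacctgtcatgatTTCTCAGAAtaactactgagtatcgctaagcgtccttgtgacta

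By summed level the genes were highest in the KO luminal and the larger basal columns and lowest in the smaller basal column. Levels below are normalised counts, that is, recovered read counts divided by 1 scale factor per column. The summed level of the 39 genes was 2910 in WT luminal cells, 4397 in KO luminal cells, 3775 in Bsecs, 4719 in the larger basal and 1790 in the smaller basal column. Without Apobec3 and Ifi202b the sums were 2882, 3995, 2394, 4487 and 1782 in the same order, so Ifi202b alone carried much of the Bsecs sum. The median gene stood at 38.4, 42.6, 41.1, 46.2 and 6.64. No reads were counted for 2 of the genes in WT luminal cells, 0 in KO luminal cells, 3 in Bsecs, 1 in the larger basal and 10 in the smaller basal column. Of all 23973 genes, 13014, 13907, 12478, 13933 and 11772 had reads in the same order. The smaller basal column had the fewest counts (2036681) and the KO luminal column the most (3840462), so these zeros also vary with depth. In bulk samples, fewer cells that express a gene and less of its RNA per cell cannot be told apart.

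**Figure D1:**
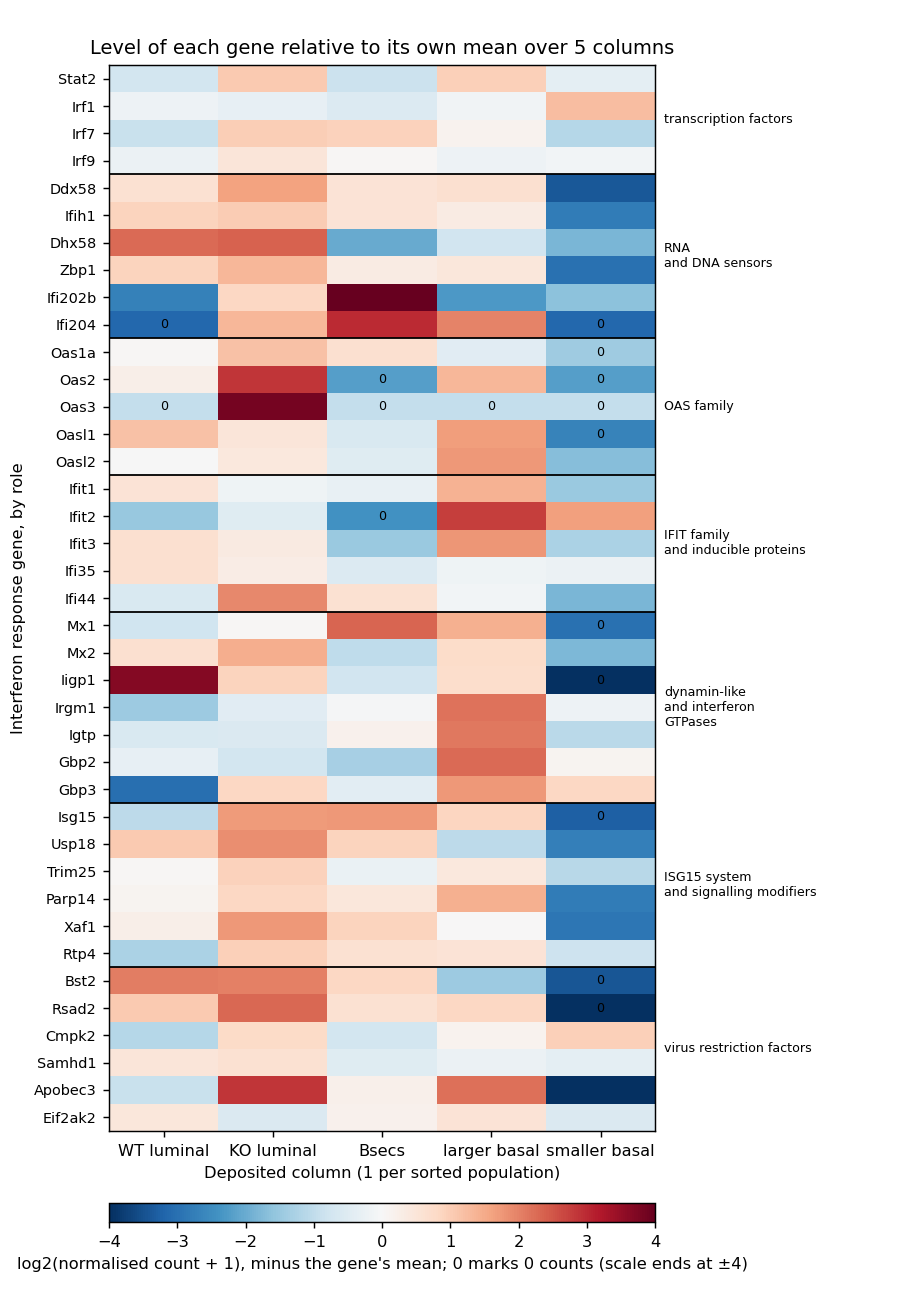
Level of each of the 39 genes (rows, grouped by role) in the 5 columns, as log2(normalised count + 1) minus the gene's own mean, with red above and blue below that mean and 0 where no read was counted. The smaller basal column is blue for most rows, with 10 genes at 0 counts, while no gene has 0 counts in the KO luminal column. These are also the columns with the fewest (2036681) and the most (3840462) summed counts.

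A filter on a mean of at least 10 normalised counts over the 5 columns kept 35 of the 39 genes and 10399 genes in all. Oas1a, Oas2, Oas3 and Oasl1 did not pass it. Of the 35, 16 had their highest level in the KO luminal column (19.8% of all genes did) and 10 in the larger basal column (19.2%). The smaller basal column was the lowest of the 5 for 20 of the 35, against 22.4% of all genes. Bsecs were lowest for 8 and WT luminal cells for 6, near the 20% and 19.2% of all genes, and Ifi204 had 0 counts in both the WT luminal and the smaller basal column. Neither the KO luminal nor the larger basal column was lowest for any of the 35, where 17.3% and 17.1% of all genes were.

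The genes did not follow lineage as a block. Levels in both luminal columns were above those in both basal columns for 10 of the 35 (29.6% of all genes), namely Bst2, Dhx58, Ifi35, Ifih1, Iigp1, Rsad2, Samhd1, Usp18, Xaf1 and Zbp1. Both basal columns were above both luminal ones for Gbp2, Ifit2, Irf1 and Irgm1, which are 4 of the 35 (26.9% of all genes). The levels of the other 21 overlapped between the lineages.

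The widest separation lay between the basal columns. Apobec3, a cytidine deaminase that restricts retroviruses, fell from 237 counts in the larger column to 1 in the smaller, and it was the only 1 of the 38 genes with a p-value past an adjusted p of 0.05 (0.0318 after Benjamini-Hochberg adjustment over the authors' deposited table). Among all genes 0.0274% passed. By size alone, 28 of 35 genes stood lower by 2-fold or more in the smaller column, where 22.5% of all genes did, and 1, the transcription factor Irf1, stood higher by that much, where 18.1% of all genes did. The median log2 fold, computed on the normalised count plus 1, was -2.14 for the 35 genes and -0.04 for all genes. An unadjusted p under 0.05 in the authors' deposited table was found for 10 of 38 genes (26.3%), all lower in the smaller column, and for 3.1% of all genes. The 95% counting interval of the fold lay below 1 for 27 of the 39 genes, 7 of them with 0 counts in the smaller column, and above 1 for Irf1. The share of all genes with such intervals was not computed, so these counts are not read as particular to the list.

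**Figure D2:**
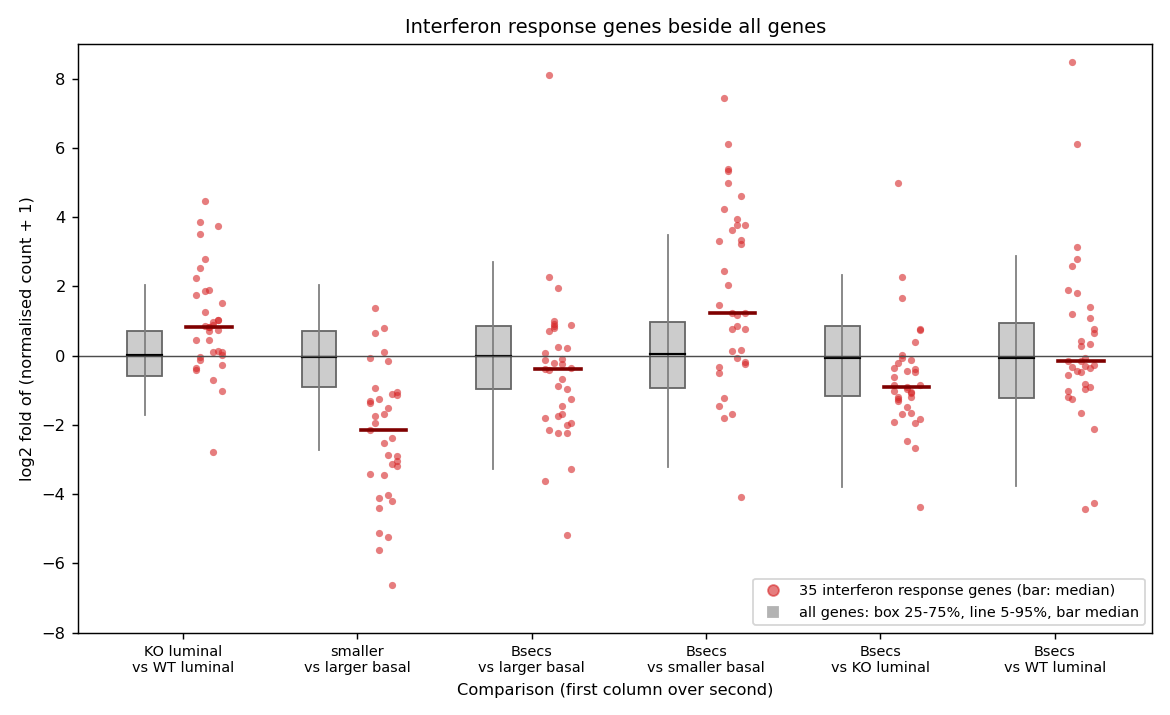
Log2 fold of (normalised count + 1) in each of the 6 comparisons for the 35 filtered interferon response genes (red points, dark bar at the median) and for all 10399 genes (grey box from the 25th to the 75th percentile, line from the 5th to the 95th, black bar at the median). The genes' median is -2.14 between the basal columns, 0.82 between the luminal columns and 1.24 for Bsecs over the smaller basal column, while the median of all genes stays within 0.07 of 0.

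Levels of most stromal markers were also lower in the smaller basal column. Of 10 fibroblast markers, 7 were lower by 2-fold or more and 0 higher in the smaller column, with a median log2 fold of -1.65 and 0 past the adjusted test, and their summed level was 2341 in the larger and 485 in the smaller column. The matrix proteoglycan Dcn was at 1297 and 130.1 and the receptor Pdgfra at 103 and 17.3. Dcn was also at 775 and 983 in the WT and KO luminal columns, and without it the basal sums were 1044 and 354.5. Col1a1, Pdgfrb and Fbln1 were less than 2-fold apart between the basal columns. The 10 endothelial markers summed to 291 and 126, with the adhesion molecule Pecam1 at 81.7 and 19.9. Of the 4 that passed the filter on the mean, 3 were lower by 2-fold or more in the smaller column and 1, the TGF-beta co-receptor Eng, was higher, at 12.5 and 59.8. The 27 leukocyte markers summed to 30.8 in the larger and 81 in the smaller column, the opposite order, with 20 and 22 of them at 0 counts, and Ptprc, the pan-leukocyte marker, at 0 in both. No fibroblast marker was at 0 in either basal column, and 3 endothelial markers were at 0 in the smaller one. The part of these cells in the interferon result was not tested.

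**Figure D3:**
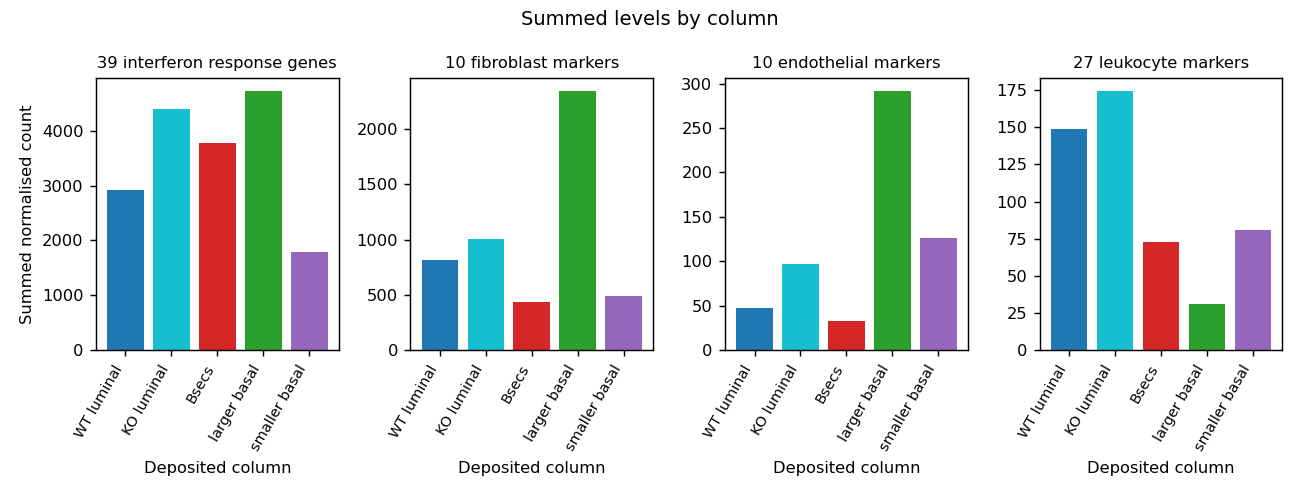
Summed normalised counts of the 39 interferon response genes and of fibroblast, endothelial and leukocyte markers in each of the 5 columns, with 1 bar per column and no error, since each is a single value. The larger basal column has the tallest bar for the interferon response genes (4719), the fibroblast markers (2341) and the endothelial markers (291), and the lowest for the leukocyte markers (30.8).

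The luminal comparison asks what differs between Bptf KO and WT luminal cells. Apobec3 rose in the KO luminal column, from 29 counts in WT to 499, which is 13.9-fold (95% counting interval 9.58 to 21.0), with an adjusted p of 0.0362 computed from the authors' deposited table. It was the only 1 of the 39 to pass, where 0.0882% of all genes passed. By size, 14 of 35 genes were at least 2-fold higher in the KO luminal column, against 17% of all genes, and 2 were at least 2-fold lower, against 13.9%. Those 2 were the GTPase Iigp1 and the kinase Eif2ak2. The median log2 fold was 0.82, and 0.03 over all genes. Unadjusted p-values under 0.05 in the authors' deposited table numbered 8 of 39 (20.5%), of which 7 were higher in KO and Iigp1 was lower, and made up 3.74% over all genes.

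Markers of other cells were also set side by side in the luminal columns. Fibroblast markers summed to 816 in WT and 1005 in KO luminal cells (5 and 3 of 10 at 0), nearly all of it Dcn, and without Dcn to 41.1 and 22.4. Endothelial markers summed to 47.3 and 96.8 (6 and 5 of 10 at 0), and without Eng, at 33.0 and 93.2, to 14.3 and 3.61. The leukocyte markers summed to 149 and 174 (16 and 15 of 27 at 0), with Ptprc at 0.893 and 2.17. Basal markers stood higher in KO, where 8 of 12 were higher by 2-fold or more (17% of all genes) and 1 lower (13.9%). Their median log2 fold was 1.25, with 0 past the adjusted test. The part of all these markers' cells in the difference was not tested.

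**Figure D4:**
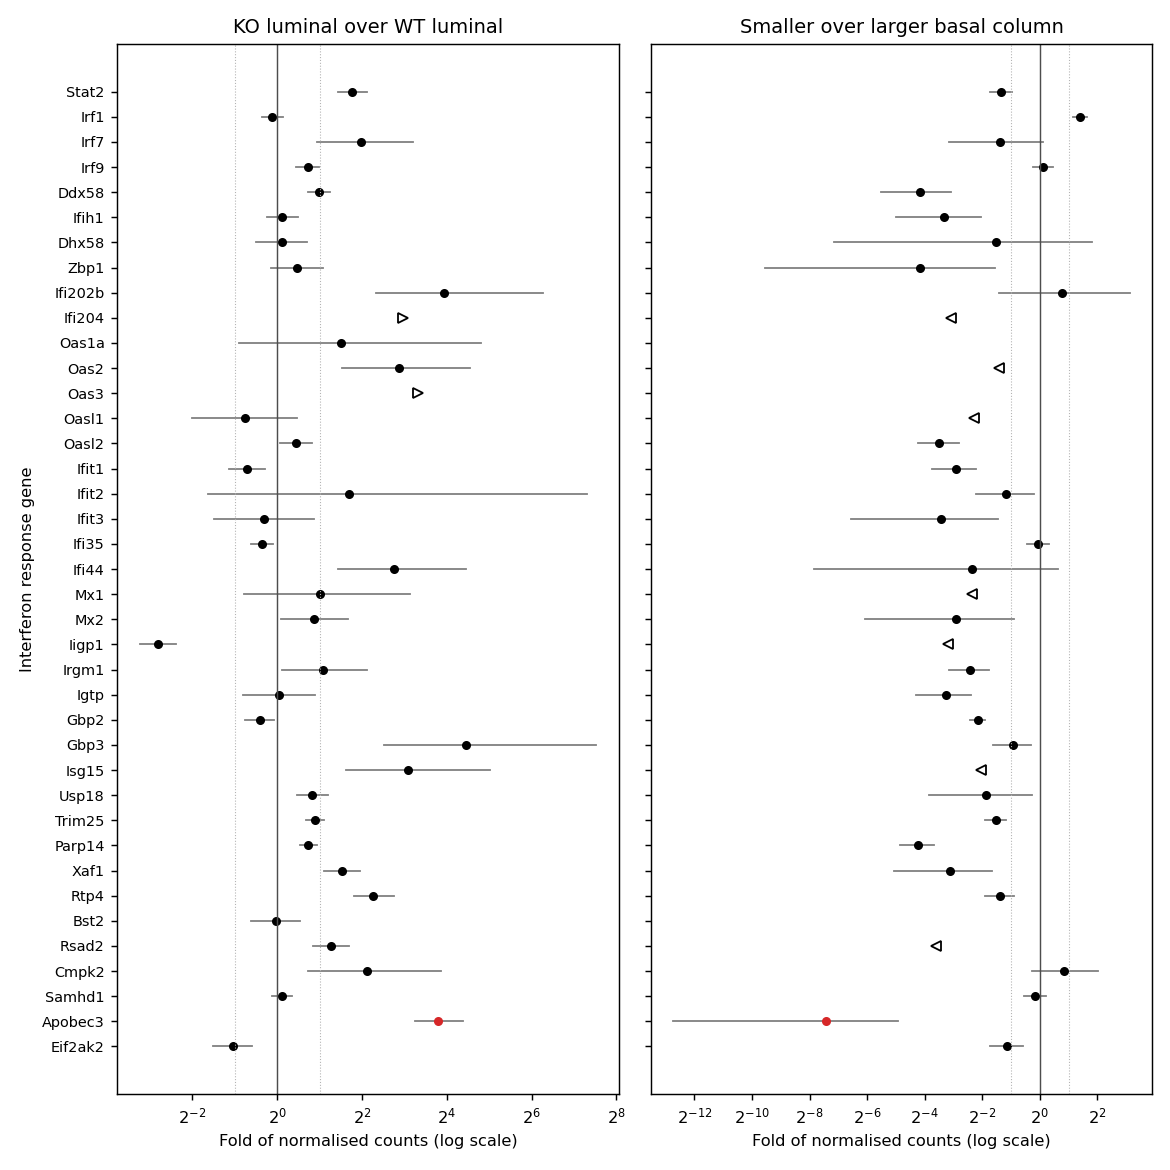
Fold of normalised counts for each of the 39 genes (rows) between the luminal columns on the left and between the basal columns on the right, on log axes, with lines for 95% counting intervals, triangles for lower bounds where a column had 0 counts, and red for an adjusted p under 0.05; dotted lines mark 2-fold. Genes with fewer than 4 counts in the only column with reads, or with 0 in both, have no mark. On the left 20 intervals lie above 1 and 5 below, with 2 bounds on the higher side, and on the right 1 lies above and 20 below, with 7 bounds on the lower side. The share of all genes with such intervals was not computed.

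Bsecs, a KO population, were set against each of the other columns, and these 4 comparisons share the Bsecs column. Ifi202b, a DNA-binding member of the interferon-inducible p200 family, rose against the larger basal column (345-fold, 134 to 1267, adjusted p 0.00412), the smaller basal column (199.7-fold, 85.3 to 616, adjusted p 0.00249) and WT luminal cells (495-fold, 169 to 2403, adjusted p 0.00931), computed from the authors' deposited tables. It was the only 1 of the genes to pass in each, where 0.48%, 0.759% and 0.21% of all genes passed. Against KO luminal cells none of the 39 passed (0.0405% of all genes did), Ifi202b came nearest at an adjusted p of 0.222, and it was the only 1 with an unadjusted p under 0.05. The exact test of edgeR, at a set dispersion, called 5 there, and 11.1% of all genes.

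By size the Bsecs comparisons differed. Against the smaller basal column 20 of 35 genes were at least 2-fold higher in Bsecs (24.7% of all genes) and 5 lower (23.7%), with a median log2 fold of 1.24 beside 0.03 for all genes. Against the larger basal column 4 were higher (21.9%) and 13 lower (24.2%), at a median of -0.38 beside -0.01. Against KO luminal cells 3 were higher (21.7%) and 16 lower (27.8%), at a median of -0.90 beside -0.06. Against WT luminal cells 10 were higher (23.7%) and 7 lower (28.4%), at a median of -0.15 beside -0.07. Scaling by totals without Rn45s changed the last split to 8 higher and 9 lower (18.5% and 33.7% of all genes), so no direction is read from it. That scaling moved the median to -0.42 beside -0.33 for all genes. Against the larger basal column it moved the median to -0.73 beside -0.37 for all genes. In Bsecs the leukocyte markers summed to 72.7 (20 of 27 at 0), the endothelial markers to 32.7 (7 of 10 at 0) and the fibroblast markers to 433 (0 of 10 at 0), and their part in these values was not tested.

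Among the transcription factors, Irf1 went its own way. Irf1, an early factor induced strongly by type II interferon, was at 217 in WT luminal cells, 200.2 in KO luminal cells, 172 in Bsecs, 229 in the larger basal and 600.1 in the smaller basal column. The smaller basal column stood apart, 2.62-fold above the larger (2.24 to 3.08), with an adjusted p of 1 by the authors' deposited table. Stat2, the partner of Irf9, was at 78.6, 268, 70.6, 251 and 99.6 in the same order of columns. It was high in the KO luminal and the larger basal columns, 3.41-fold above WT luminal (2.70 to 4.36) and 2.52-fold above the smaller basal column (1.94 to 3.30). Irf7, which amplifies type I interferon output, had 9, 44, 29, 18 and 5 counts, and was 4.60-fold higher in Bsecs than in the smaller basal column (1.76 to 15.2). Irf9 had the narrowest span of the 39 genes, from 156 in WT luminal to 257 in KO luminal cells.

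RNA sensors were near 0 in the smaller basal column. Ddx58 (RIG-I), which binds viral RNA ends, was at 166 in WT luminal cells, 327 in KO luminal cells, 157 in Bsecs, 167 in the larger basal column and 9.29 in the smaller. Bsecs lay within the counting error of both WT luminal cells and the larger basal column, while the smaller basal column was 18-fold below the larger (8.55 to 45.4), with an adjusted p of 0.754 by the authors' deposited table. Ifih1 (MDA5), the sensor of long double-stranded RNA, was at 98.2, 107, 76.9, 66.3 and 6.64 in the same order. It was 9.995-fold lower in the smaller than in the larger basal column (4.08 to 31.8). Dhx58 (LGP2), their relative, had 43 and 57 counts in the luminal columns, 1 in Bsecs, 4 in the larger basal and 1 in the smaller basal column, so the KO luminal level was 39.1 times that of Bsecs (6.74 to 1571). Zbp1, a sensor of Z-form nucleic acid, had 37, 63, 21, 25 and 1 counts.

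The listed p200 family genes were distributed otherwise. Ifi202b was at 2.68 in WT luminal cells, 41.2 in KO luminal cells, 1325 in Bsecs, 3.85 in the larger basal and 6.64 in the smaller basal column. Bsecs held nearly all of its reads, with 1258 counts, and KO luminal cells came next with 57. The KO luminal level was 15.4-fold that of WT luminal cells (5.004 to 76.8), with an adjusted p of 1 by the authors' deposited table. Ifi204 had 0, 29, 65, 35 and 0 counts, again with its highest level in Bsecs, at least 25.6-fold above WT luminal cells against a floor of 3 counts. Genes of this family outside the list were divided. Ifi205 and Ifi203 were highest in the larger basal column, at 78.85 and 33.66, beside 29.5 and 11.59 in Bsecs. Mnda and Aim2 were highest in Bsecs, at 41.09 and 22.13. Genes of this family are similar in sequence, and the sources used here do not give how shared reads were divided. The same limit applies to the Oas, Ifit, Gbp, Mx and Irg families.

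The OAS family, whose active members make the signal that switches on RNase L, was thinly covered. Oasl2 was the exception, at 83.0 in WT luminal cells, 113 in KO luminal cells, 60.1 in Bsecs, 284 in the larger basal and 25.2 in the smaller basal column. It was 11.3-fold lower in the smaller than in the larger basal column (7.07 to 18.9), with an adjusted p of 0.708 by the authors' deposited table. Oas3 had 37 counts in KO luminal cells and 0 in the other 4 columns, at least 9.98-fold above WT luminal cells against the floor of 3 counts. Oas2 had 45 counts in KO luminal cells, 5 in WT luminal cells, 11 in the larger basal column and 0 in the other two. Oas1a stayed at or under 7 counts and Oasl1 at or under 20 in all columns, and both were at 0 in the smaller basal column.

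Of the IFIT genes, whose products bind foreign RNA ends and block translation, all 3 were highest in the larger basal column. Ifit1 was at 94.6 in WT luminal cells, 57.8 in KO luminal cells, 52.7 in Bsecs, 171 in the larger basal and 22.6 in the smaller basal column. It was 7.58-fold lower in the smaller than in the larger basal column (4.61 to 13.3) and 1.64-fold lower in KO than in WT luminal cells (1.21 to 2.22). Ifit3 had 14 counts in each luminal column, 2 in Bsecs, 30 in the larger basal and 2 in the smaller basal column. Ifit2 had 1, 4, 0, 37 and 12 counts in the usual order. Ifi35 was even across the basal columns, at 129 and 123, and was at 229 in WT luminal cells, 179 in KO luminal cells and 99.0 in Bsecs. Ifi44 had 5, 42, 11, 7 and 1 counts.

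The GTPases split by column. Guanylate-binding protein Gbp2, which coats membranes around intracellular microbes, was at 143 in WT luminal cells, 107 in KO luminal cells, 69.5 in Bsecs, 860 in the larger basal and 194 in the smaller basal column. The larger basal column stood apart, 4.44-fold above the smaller (3.72 to 5.32) and 12.4-fold above Bsecs (9.62 to 16.1), the latter with an adjusted p of 0.412 by the authors' deposited table. Irgm1, a regulator of the immunity-related GTPases, was at 11.6, 24.6, 32.7, 157 and 29.2, and its relative Igtp at 20.5, 21.0, 35.8, 140.4 and 14.6. Both were thus several times higher in the larger basal column than in any other, Irgm1 by 5.37-fold (3.43 to 8.80) and Igtp by 9.61-fold (5.22 to 19.7) over the smaller basal column.

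Iigp1 had the largest fall of the listed genes from WT to KO luminal cells. This immunity-related GTPase was at 293 in WT luminal cells, 41.9 in KO luminal cells, 12.6 in Bsecs, 36.5 in the larger basal column and 0 in the smaller, where the floor of 3 counts lies at a level of 3.98. Its KO luminal level was 6.99-fold below WT (5.27 to 9.40), with an adjusted p of 0.355 by the authors' deposited table. Bsecs were 23.2-fold below WT luminal cells (13.1 to 45.3, adjusted p 0.519 by the same source). Gbp3 had 2 counts in WT luminal cells and 54 in KO luminal cells, a ratio of 21.9 (5.76 to 185), and 15, 77 and 29 in the other columns. Mx1, a dynamin-like antiviral protein, had 4, 10, 37, 21 and 0 counts, highest in Bsecs, and Mx2 had 21, 47, 5, 21 and 2.

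**Figure D5:**
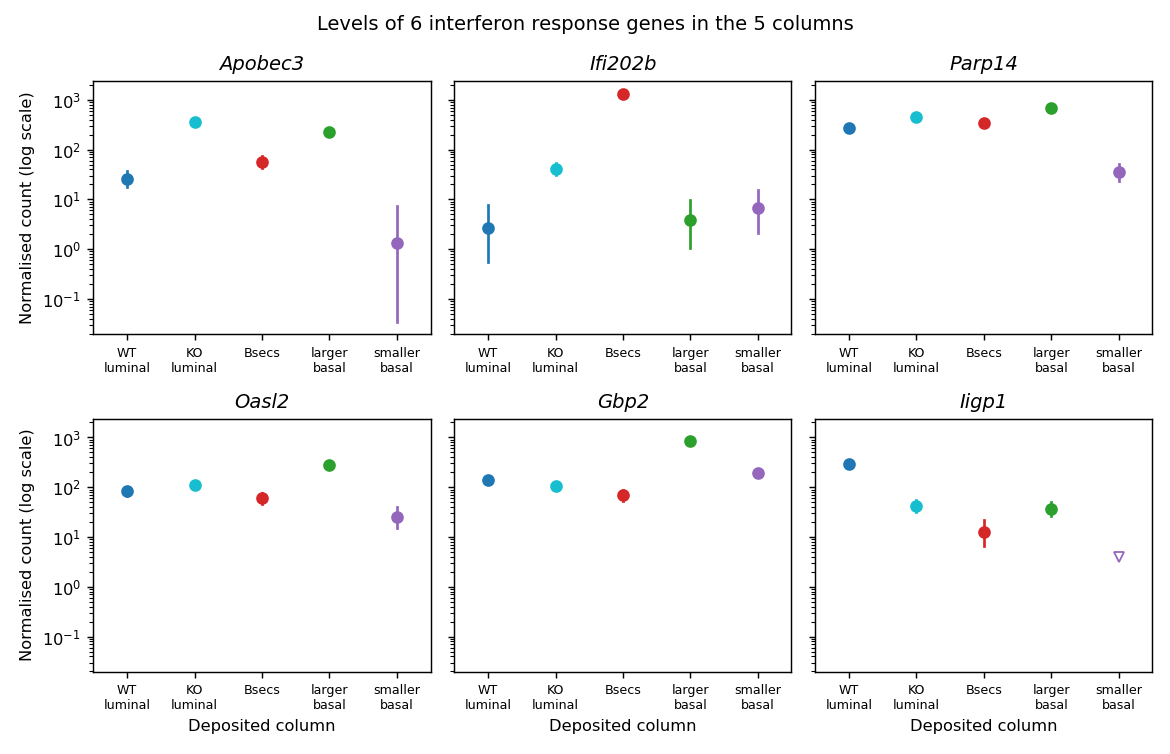
Normalised counts (log axis) of Apobec3, Ifi202b, Parp14, Oasl2, Gbp2 and Iigp1 in the 5 columns, with points for the single value per column, lines for exact Poisson 95% counting intervals and an open triangle at the level of 3 counts, the floor, where a column had 0 counts. Apobec3 spans 361 in KO luminal to 1.33 in the smaller basal column, Ifi202b is at 1325 in Bsecs alone, Gbp2 is highest in the larger basal column (860) and Iigp1 in WT luminal cells (293).

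All 6 genes of the ISG15 system and other signalling modifiers stood lower by 2-fold or more in the smaller than in the larger basal column, at a median log2 fold of -2.29. So did 28 of the 35 filtered listed genes and 22.5% of all genes. Parp14, an ADP-ribosyltransferase, was at 271 in WT luminal cells, 449 in KO luminal cells, 345 in Bsecs, 677 in the larger basal and 35.9 in the smaller basal column. Only the last stood apart by a wide margin, 18.9-fold below the larger basal column (12.9 to 28.9), with an adjusted p of 0.0516 by the authors' deposited table. Usp18, which removes ISG15 and restrains the type I receptor, was at 85.7, 152, 76.9, 19.2 and 5.31. Its luminal and Bsecs levels were above both basal ones, and Bsecs were 14.5-fold above the smaller basal column (5.42 to 54.6). Xaf1, a promoter of apoptosis, was at 53.6, 154, 85.3, 46.2 and 5.31, 8.69-fold lower in the smaller than in the larger basal column (3.18 to 33.2).

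Rtp4, a chaperone that binds viral RNA, was at 41.1 in WT luminal cells, 198 in KO luminal cells, 155 in Bsecs, 146 in the larger basal and 55.8 in the smaller basal column. WT luminal cells were the lowest, 4.82-fold below KO luminal cells (3.52 to 6.74). Isg15 itself, the ubiquitin-like modifier, had 4, 42, 29, 17 and 0 counts, 8.50-fold higher in KO than in WT luminal cells (3.08 to 32.6). Trim25, the ubiquitin ligase that activates RIG-I, ranged from 111 in the smaller basal to 463 in the KO luminal column. None of these 3 passed the adjusted test in any comparison, each with an adjusted p of 1 between the luminal columns in the authors' deposited table.

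Among the restriction factors Apobec3 had the widest span of levels, and among the genes with reads in all 5 columns it came second to Ifi202b. It was at 25.9 in WT luminal cells, 361 in KO luminal cells, 55.8 in Bsecs, 228 in the larger basal column and 1.33 in the smaller. The KO luminal and larger basal columns were high and the smaller basal column rested on 1 count, which gives a ratio of 172 between the basal columns with an interval from 30.5 to 6808. Rsad2 (viperin), which makes a chain-terminating nucleotide, was at 56.2, 135, 41.1, 48.1 and 0, and its smaller basal level was at least 12.1-fold lower than the larger, against the floor of 3 counts. KO luminal cells had the highest Rsad2 level, 2.40-fold above WT (1.80 to 3.25).

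The remaining restriction factors varied less. Samhd1, which depletes nucleotides, was at 245 in WT luminal cells, 265 in KO luminal cells, 125 in Bsecs, 149 in the larger basal and 133 in the smaller basal column. The luminal columns were alike within counting error (1.08-fold, 0.925 to 1.27), as were the basal ones (1.12-fold, 0.868 to 1.46). Bst2 (tetherin), which holds budding virions at the surface, had 49 and 59 counts in the luminal columns, 17 in Bsecs, 3 in the larger basal column and 0 in the smaller. Eif2ak2 (PKR), the kinase that halts translation, ranged from 46.5 in the smaller to 103 in the larger basal column and was 2.07-fold lower in KO than in WT luminal cells (1.51 to 2.86). Cmpk2, a mitochondrial nucleotide kinase, stayed at or under 27 counts.

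Other genes of the pathway were read from lists of names. Of 15 receptor, JAK-STAT and feedback genes, 17 adaptors and kinases of nucleic acid sensing, and 53 further interferon-inducible genes, 0 passed the adjusted test in any of the 6 comparisons, where 0.0274% to 0.759% of all genes passed, computed from the authors' deposited tables. The receptor subunits differed in order. Ifnar1, of the type I receptor, was at 84.8 in WT luminal cells, 124 in KO luminal cells, 321 in Bsecs, 203 in the larger basal and 353 in the smaller basal column, so it was high in the smaller basal column, and Ifnar2 was at 174, 143, 152, 340.4 and 161 in the same order. Ifngr1, of the type II receptor, was at 112, 134, 68.5, 155 and 143, and Ifngr2 at 144, 264, 281, 189 and 57.1. The type III receptor subunit Ifnlr1 was at 191, 184, 59.0, 93.3 and 15.9, and Il10rb, its partner, at 55.4, 65.0, 87.4, 58.7 and 10.6.

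Of 11 interferon genes found, 9 had 0 counts in all 5 columns, Ifnb1 and Ifng among them. The type III interferons were the ones with reads. Ifnl3 had 8 counts in WT luminal cells, 23 in KO luminal cells and 4 in Bsecs, Ifnl2 had 3 in WT luminal cells and 21 in Bsecs, and both had 0 in the basal columns.

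The further interferon-inducible genes, of which 35 passed the filter on the mean, were counted by the same fold. Between the basal columns 21 of 35 were lower by 2-fold or more in the smaller (22.5% of all genes) and 1 was higher (18.1%), at a median log2 fold of -1.42. Between the luminal columns 10 were higher in KO (17% of all genes) and 2 lower (13.9%), at a median of 0.63. In Bsecs 14 were higher and 5 lower than in the smaller basal column (24.7% and 23.7% of all genes), and 8 were higher and 11 lower than in the larger (21.9% and 24.2%). Against KO luminal cells 6 were higher and 12 lower (21.7% and 27.8%), and against WT luminal cells 10 were higher and 6 lower (23.7% and 28.4%). The summed level of the 53 genes had another order of columns, at 10920 in WT luminal cells, 12700 in KO luminal cells, 9866 in Bsecs, 9758 in the larger basal and 11950 in the smaller basal column, and Ly6e and Ifitm3 had the highest mean levels in it. Of the 15 receptor and JAK-STAT genes, 2 were higher and 6 lower in the smaller basal column at a median of -0.24.

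Set beside the promoter letters shown above, the 14 filtered genes with the ISRE pattern had a median log2 fold of -2.95 between the basal columns, with values from -6.62 to -0.93, and the 12 filtered genes whose window lacked it had a median of -0.64, with values from -3.44 to 1.39. Between the luminal columns the medians were 0.55 with the pattern and 0.97 without it. For Bsecs over the larger basal column they were -1.75 and -0.31, and over the smaller 1.21 and 0.49. Against KO luminal cells they were -0.83 and -0.87, and against WT luminal cells -0.21 and -0.02. The difference between the genes with and without the pattern was not tested.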

How the data were processed

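Total RNA of sorted cells was amplified and made into barcoded libraries with NuGEN Ovation kits, per the labels' protocols. Per the submitters' processing notes, STAR and DESeq were used with build mm9. The sources used here do not give versions, the counter, the annotation or strand use, so reads of overlapping or antisense genes cannot be told apart.

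The authors deposited 6 tables of 24000 rows with, per the file headers, the mean signal of each group (normalised read counts) and an unadjusted p-value. In 27 rows the symbol was replaced by a date or duplicated, and these were left out. Every mean was a whole multiple of 1 step per column (100% within 0.01), so read counts were recovered, and equal counts linked 12 table columns into 5 distinct ones. The deposited p-values compare 1 column with 1 column and hold no spread between libraries. They were adjusted by Benjamini-Hochberg over all genes of a table at 0.05, in place of the adjusted p-values that had been planned for.

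Levels are counts divided by median-of-ratios factors over the 5 columns. Log2 folds use a pseudocount of 1 and understate the change of low genes. Fold intervals are exact binomial (Clopper-Pearson) at 95%, and cover counting error only, since amplified reads carried no molecular identifiers. Folds against 0 counts use a floor of 3 counts in that column and are lower bounds.

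The genes and lists were chosen with earlier results of these data known. Members were to be named with values if past the adjusted test, if at least 4-fold apart at a mean of at least 50, or if highest or most variable in their role. Of the other lists, the receptor subunits and defining markers were to be named. One gene of the pathway is not reported here. The others given by value were chosen after their values were seen. Alternatives were TMM scaling and an exact test in edgeR 4.0.16 (R 4.3.3), totals without Rn45s, other filters and folds. Scripts ran in Python 3.11.15, and steps across all genes were tested on simulated data. Promoter sequences are from RefSeq (GRCm38.p6), and no coordinates of the files' own build are given.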

Additional observations from a re-analysis of the deposited data

How the results depend on the processing

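No paired analysis was possible because the deposited columns carry no replicate numbers, and for the same reason no library could be left out. Of 118 values set beside the main ones under other settings, 98 were classed as unchanged, 19 moved further and 1 reversed. Unchanged meant the same direction and within 1.5 times for a count, or within its counting interval for a single gene's fold. For a median it meant within the median half-width of single genes' counting intervals, 0.465 to 1.024 in log2. That width belongs to single genes and is no error of a median, so it says little about the medians. The 98 include the limited background given below, under which the counts of the listed genes could not change in any comparison. The order of comparisons below is KO over WT luminal, smaller over larger basal, then Bsecs over larger basal, smaller basal, KO luminal and WT luminal. The exact test of edgeR, at a dispersion set to 0.16, called 4, 8, 4, 12, 5 and 6 of the genes, where the deposited p-values gave 1, 1, 1, 1, 0 and 1, and called 1.54%, 2.40%, 8.52%, 10.2%, 11.1% and 13.8% of all genes. That dispersion is an assumption, because the columns hold no replicates. Adjusting only over genes with a mean of at least 10 gave 2 calls between the basal columns. With a mean of at least 50, the genes at least 2-fold apart numbered 9, 17, 9, 14, 8 and 7 of 21, because fewer genes were tested. Of these, 7, 1, 2, 12, 1 and 4 were higher (13.1%, 16.3%, 21.4%, 20.3%, 22.5% and 24.3% of all genes). The others, 2, 16, 7, 2, 7 and 3, were lower (10.1%, 14.9%, 17.3%, 19.6%, 20.8% and 21.3%). The smaller basal column was lowest for 12 of 21, against 20.3% of all genes. A fold of 4 left 8, 18, 9, 17, 5 and 8 of 35 genes. Of these, 7, 0, 2, 16, 2 and 5 were higher (5.18%, 5.26%, 8.76%, 12.1%, 7.17% and 9.84% of all genes). The others, 1, 18, 7, 1, 3 and 3, were lower (3.38%, 9.1%, 11.5%, 11.2%, 15% and 15.3%). The last 2 counts were thus no larger than the share of all genes. Totals without Rn45s shifted all log2 folds by -0.10, -0.15, -0.35, -0.21, -0.16 and -0.26. The median of the genes thereby went from -0.38 to -0.73 for Bsecs over larger basal and from -0.15 to -0.42 for Bsecs over WT luminal, where a mean of at least 50 gave -0.28. The same scaling reversed the split of the 17 genes at least 2-fold apart between Bsecs and WT luminal cells. The split went from 10 higher and 7 lower to 8 higher and 9 lower (18.5% and 33.7% of all genes under that scaling). TMM shifted all log2 folds by at most 0.10. Limited to the 9050 genes in the range of means of the listed ones, an alternative chosen after seeing the data, 24.6% of all genes were lower by 2-fold or more in the smaller basal column and 17.9% higher in KO luminal cells. Genes under 10 counts numbered 12, 2, 9, 6 and 22 of 39 in the usual order of columns (WT luminal, KO luminal, Bsecs, larger basal, smaller basal), and their folds have wide intervals.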

Other observations

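Interferon GTPases outside the list of 39, picked after their values were seen, resembled Gbp2, Irgm1 and Igtp in being highest in the larger basal column. Ifi47 had 0 counts in WT luminal cells, 2 in KO luminal cells, 7 in Bsecs, 212 in the larger basal and 13 in the smaller basal column. Irgm2 had 31, 59, 47, 165 and 17 counts in the same order, and Gbp7 had 50, 96, 20, 180 and 27. Gbp4 and Gbp9 had 25 and 27 counts in the larger basal column and 0 in the smaller. Gbp5 was an exception, with 27 counts in each basal column. Gbp6 had at most 4 counts anywhere, and Tgtp1 and Tgtp2 had none.

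Abundant interferon-inducible genes outside the list differed in their order of columns. Ifitm3, which blocks virus entry, was highest in the smaller basal column, at 737 normalised counts in WT luminal cells, 1143 in KO luminal cells, 3792 in Bsecs, 4610 in the larger basal and 8216 in the smaller basal column. Ly6e, a surface protein that hinders coronavirus fusion, was highest in the luminal columns and lowest in the smaller basal one, at 7560, 7347, 3280, 1539 and 1446. Slfn2, of the schlafen family, had 147 and 321 counts in WT and KO luminal cells, 82 in Bsecs, 6 in the larger basal column and 0 in the smaller.

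Neighbouring genes of the list were sought among RefSeq protein-coding genes, with at most 5 such genes between them. The pairs found, most of them of the same gene family, mostly shared the column of their highest level. How often neighbours among all genes do so was not computed. Among these pairs only Rsad2 and Cmpk2 differed in it, with KO luminal cells highest for Rsad2 and the smaller basal column for Cmpk2. Mx1 and Mx2 were not among the pairs found, and were highest in Bsecs and in KO luminal cells. Rsad2 and Cmpk2 lie side by side on chromosome 12, with 0 protein-coding genes between them in RefSeq. Rsad2 had 50 counts in the larger basal and 0 in the smaller basal column, while Cmpk2 had 13 and 17. Oas2 and Oas3, adjacent on chromosome 5, both had most of their reads in KO luminal cells (45 and 37 counts).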
